A study of Homo sapiens with 21 samples.

Results

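RNA-seq was used to set cells treated with calcium directly against cells treated with cadmium, with no control in the comparison. The cells were MDA-MB-453, an established human breast cancer line of luminal character. The comparison used 6 of the 21 libraries of the series, 3 from cells given 10 mM calcium for 24 h and 3 from cells given 10 μM cadmium for 24 h. The calcium was given in IMEM without serum and the cadmium in IMEM with 1% charcoal-stripped serum, so the metal and the serum cannot be told apart here, and the doses of the metals also differed. Genes with a mean FPKM (fragments per kilobase of gene, scaled by the library size) of at least 0.5 over the 6 libraries were tested, which kept 14976 of the 58735 genes in the table. The study asked if both metals act on gene expression through ESRRB, a nuclear receptor related to the estrogen receptors. Its remaining libraries came from untreated cells and from cells given GSK4716 (5 μM, an ESRRB agonist), diethylstilbestrol (DES, 10 μM, an ESRRB antagonist), or DES 3 h before either metal. Only the untreated cells, as a reference level, and the groups with DES were used beside the comparison, apart from an alternative fit of all 7 groups. The labels give the genotype as wild type in every group and do not say whether the 3 libraries of a group came from separate cultures, so p-values measure the spread between these libraries, which may be technical.

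Calcium and cadmium enter cells by partly shared routes but meet different systems inside. Calcium is a second messenger: a rise in the cytosol is read by calmodulin and S100 proteins and is passed through kinases to serum response factor and CREB, which switch on immediate early genes such as FOS within minutes. Cadmium has no known use in human cells. It displaces zinc and binds thiols, and cells are known to answer with metal-responsive transcription factor 1 (MTF1), which binds metal response elements (MREs) and drives the metallothioneins, with heat shock factor 1, which drives chaperones, and with NRF2, which drives heme oxygenase and glutathione synthesis. Metallothioneins are small, cysteine-rich proteins that hold zinc, copper and cadmium.

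Sequences upstream of the start sites of 4 genes that were higher with cadmium are printed here because they hold matches to the element that MTF1 binds. Each holds the 250 bases before a RefSeq start site (GRCh38.p14), 5′ to 3′ on the strand of the gene. Capitals mark the MRE core, searched as TGCGCNC or TGCACNC on both strands.
MT2A, chr16:56608334-56608583, plus strand: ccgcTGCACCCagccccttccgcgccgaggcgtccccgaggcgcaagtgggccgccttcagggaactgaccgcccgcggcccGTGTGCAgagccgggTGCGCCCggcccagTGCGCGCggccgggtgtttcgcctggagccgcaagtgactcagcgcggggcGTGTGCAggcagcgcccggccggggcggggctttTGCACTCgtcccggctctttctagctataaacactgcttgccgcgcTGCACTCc
MT1X, chr16:56682220-56682469, plus strand: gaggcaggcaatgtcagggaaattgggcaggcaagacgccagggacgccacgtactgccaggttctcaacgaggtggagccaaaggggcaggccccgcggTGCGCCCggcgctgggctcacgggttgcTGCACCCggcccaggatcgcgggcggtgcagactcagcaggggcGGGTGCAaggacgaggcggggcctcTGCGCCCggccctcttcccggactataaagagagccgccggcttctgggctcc
MT1B, chr16:56651636-56651885, plus strand: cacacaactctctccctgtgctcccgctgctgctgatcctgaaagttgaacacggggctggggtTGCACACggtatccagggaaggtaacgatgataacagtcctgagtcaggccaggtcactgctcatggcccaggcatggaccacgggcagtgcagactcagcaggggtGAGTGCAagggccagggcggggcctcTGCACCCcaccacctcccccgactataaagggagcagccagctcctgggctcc
SLC30A1, chr1:211579162-211579411, minus strand: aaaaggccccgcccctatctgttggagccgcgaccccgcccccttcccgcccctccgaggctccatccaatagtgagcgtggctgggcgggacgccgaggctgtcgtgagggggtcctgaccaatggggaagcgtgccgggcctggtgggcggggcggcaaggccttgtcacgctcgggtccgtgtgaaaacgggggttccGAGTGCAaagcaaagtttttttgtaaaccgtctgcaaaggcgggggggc

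The MT2A promoter held 7 matches, MT1X 4, MT1B and MT4 3 each and SLC30A1 1. At least 1 match was found upstream of 28.5% of all 27305 genes in the promoter table, at least 3 upstream of 1.94%, at least 4 upstream of 0.458% and at least 6 upstream of 0.0659%, taking the start with the most matches for each gene. Of the genes that are named below as higher with cadmium, 12 could be matched to a promoter and 8 held a match. Of those named as higher with calcium, 25 could be matched and 7 held one. Every metallothionein and the called members of the zinc transport and NRF2 lists were named by rule, so these counts partly follow from that choice. The element of AP-1 (FOS and JUN proteins), searched as TGANTCA, was found in 3 of the 12 and 1 of the 25, against 8.06% of all genes. The cyclic AMP response element that CREB binds, searched as TGACG followed at once by TCA, was found in 0 of the 12 and 1 of the 25, against 2.03% of all genes. A match is a run of letters and not evidence of binding. MT1E, MT1F and LIF had no entry.

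Calcium-treated and cadmium-treated cells differed in the level of 499 of the 14976 genes (3.33%) at an adjusted p below 0.05, of which 313 (2.09%) were higher with calcium and 186 (1.24%) higher with cadmium. The genes higher with cadmium were led by metallothioneins, with MT1E, MT1X and MT1F showing the lowest p-values of all genes. Among the protein-coding genes higher with calcium, LIF (leukemia inhibitory factor, a cytokine of the IL-6 family), KRT81 (a hair keratin) and FOS (a subunit of the AP-1 transcription factor) had the largest log2 differences. The median log2 difference was 1.68 for the genes higher with calcium and −1.90 for those higher with cadmium, against −0.02 for all genes tested, where positive values stand for higher levels with calcium on the log2(FPKM + 0.1) scale. A log2 difference of at least 1 in size was shown by 294 of the 313 and 179 of the 186. At an unadjusted p below 0.05 there were 3473 genes (23.2%), 1866 higher with calcium and 1607 higher with cadmium. The 3 values of each group did not overlap in 4502 genes (30.1%), which included the 499.

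**Figure D1:**
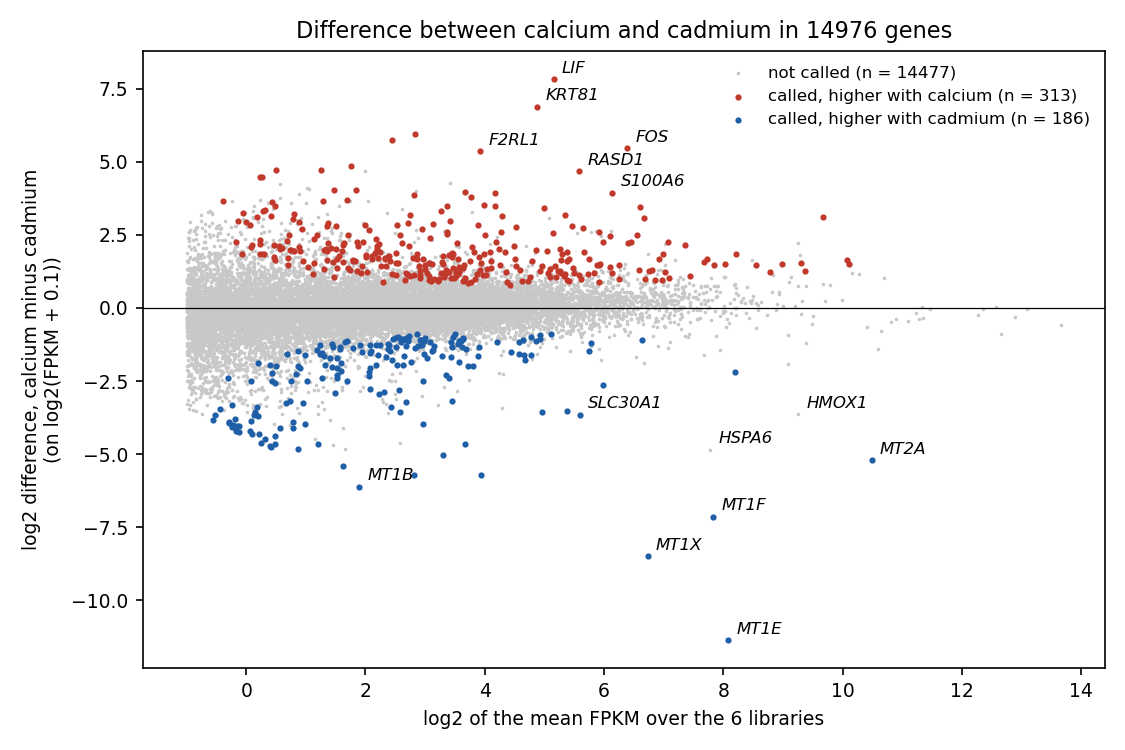
Each point is a gene, with the log2 of its mean FPKM over the 6 libraries on the horizontal axis and the log2 difference, calcium minus cadmium, on the vertical axis. The 313 red points were called higher with calcium and the 186 blue points higher with cadmium. MT1E, MT1X, MT1F and MT2A lie far below the other genes of their level, and HMOX1 and HSPA6 lie low but are grey because they missed the threshold.

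Messenger RNAs of proteins made up 74.4% of the genes tested, 92.3% of those called higher with calcium and 65.1% of those called higher with cadmium. Genes shorter than 200 bases, which are mostly small RNAs that a poly-A library captures poorly, gave 16 of the calls with cadmium and 3 with calcium, out of 705 tested. The libraries held 16172261 to 22056579 fragments on genes. The number of genes detected ran from 19106 to 24859 in the calcium libraries and from 23403 to 31147 in the cadmium libraries, with the highest in cadmium replicate 3. Cadmium replicate 3 also stood apart in level. Its correlations with the calcium libraries over the tested genes were 0.819, 0.779 and 0.833, and those of the other cadmium libraries were 0.837 to 0.895. Calcium replicate 2 had similarly low correlations with cadmium replicates 1 to 3, at 0.837, 0.839 and 0.779, and the fewest detected genes. The part of the number of detected genes in the calls was not tested.

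The count of calls depended on single libraries. It was 12 without calcium replicate 1, 5 without calcium replicate 2, 19 without calcium replicate 3, 193 without cadmium replicate 1, 30 without cadmium replicate 2 and 298 without cadmium replicate 3. MT1E, MT1X, MT1F and LIF passed in all 6 of these fits, MT2A and S100A6 in 5, and KRT81 and MT1B in 4. The share of the calls that were higher with calcium was 33.3%, 20.0% and 42.1% without calcium replicate 1, 2 or 3, and 64.2% to 73.3% without a cadmium library. The other genes named below passed in 3 or fewer.

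The summed level of the metallothioneins was higher with cadmium. The sum of the 13 genes listed was 51.8, 80.0 and 107 FPKM in the calcium libraries, 2943, 3382 and 5695 in the cadmium libraries and 25.4 to 96.6 in untreated cells. Both the calcium and the untreated libraries therefore held a low sum, and the cadmium libraries lay far above without overlap. Of the 13 genes, 6 passed the filter and were called higher with cadmium, with a fitted median log2 difference of −6.62 (−6.16 with MT1B and MT4 set to the bounds given below). In 4 of them (MT1E, MT1X, MT1B and MT4) the mean with calcium was below 0.5 FPKM, so they passed the filter only through the cadmium libraries, and their count and median describe the genes that passed and not the family. They lie on chromosome 16 within a stretch where the family is clustered.

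MT1E (chr16:56625475-56627112, ENSG00000169715) was nearly silent with calcium. It read 0.128, 0 and 0.255 FPKM with calcium, 414, 466 and 740 FPKM with cadmium, and 0 to 0.118 FPKM in untreated cells. The log2 difference was −11.35 ± 0.46 (SE, n = 3 per group; limma, adjusted p = 9.75e-05). MT1X (chr16:56682424-56684196) read 0.505, 0.548 and 0.378 FPKM with calcium and 172, 175 and 289 FPKM with cadmium, a log2 difference of −8.49 ± 0.26 (adjusted p = 3.60e-05). MT1F (chr16:56657694-56660698) read 2.28, 3.63 and 3.45 FPKM with calcium and 352, 437 and 565 FPKM with cadmium, a log2 difference of −7.13 ± 0.26 (adjusted p = 6.21e-05). In each of the 3 genes the highest calcium library was below the lowest cadmium library by more than the spread within either group.

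MT2A (chr16:56608199-56609497), the most abundant metallothionein in these cells, was already present with calcium. It read 48.9, 75.8 and 103 FPKM with calcium, 2001, 2288 and 4088 FPKM with cadmium and 24.1 to 92.7 FPKM in untreated cells, and its log2 difference was −5.19 ± 0.37 (adjusted p = 0.0029). MT1B and MT4, which are usually restricted in tissue, had no fragment in any calcium or untreated library. MT1B read 3.76, 10.9 and 7.69 FPKM with cadmium, which is at least 19.3-fold higher than the limit that 3 fragments per library would set. MT4 read 0.748, 5.69 and 4.55 FPKM with cadmium, at least 7.34-fold higher than that limit. The pseudogene MT2P1 also had no fragment with calcium and read 0.901, 6.98 and 10.6 FPKM with cadmium. Genes of this family are similar in sequence, some of them near-identical, so fragments may be split among them. MT1B, MT4 and MT2P1 may hold fragments of the abundant members, which was not tested. Replicate 3 of DES with calcium read 1117 FPKM of MT2A, 2.48 FPKM of MT2P1 and 0 FPKM of MT1B and MT4. The remaining 7 listed genes (MT1A, MT1G, MT1H, MT1M, MT1L, MT1HL1 and MT3) stayed below the filter.

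Of the 19 zinc and metal transport genes tested, 2 were called higher with cadmium, against 1.24% of all genes, and none with calcium. The median log2 difference was −0.25. SLC30A1 (chr1:211571568-211578742) encodes the zinc exporter ZnT1 of the plasma membrane and is a known MTF1 target. It read 4.33, 6.60 and 6.80 FPKM with calcium, 30.7, 84.0 and 157 FPKM with cadmium and 3.23 to 7.40 FPKM in untreated cells (log2 difference −3.65 ± 0.54, adjusted p = 0.0272). SLC39A8 encodes ZIP8, an importer of zinc, manganese and cadmium. It read 2.29, 2.79 and 3.58 FPKM with calcium and 9.66, 13.4 and 8.94 FPKM with cadmium, and its log2 difference was −1.85 ± 0.25 (adjusted p = 0.0247). The untreated cells, at 6.03 to 6.98 FPKM, lay between both groups for SLC39A8 and at the calcium level for SLC30A1. Both genes passed in 2 of the 6 fits that left out a library.

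**Figure D2:**
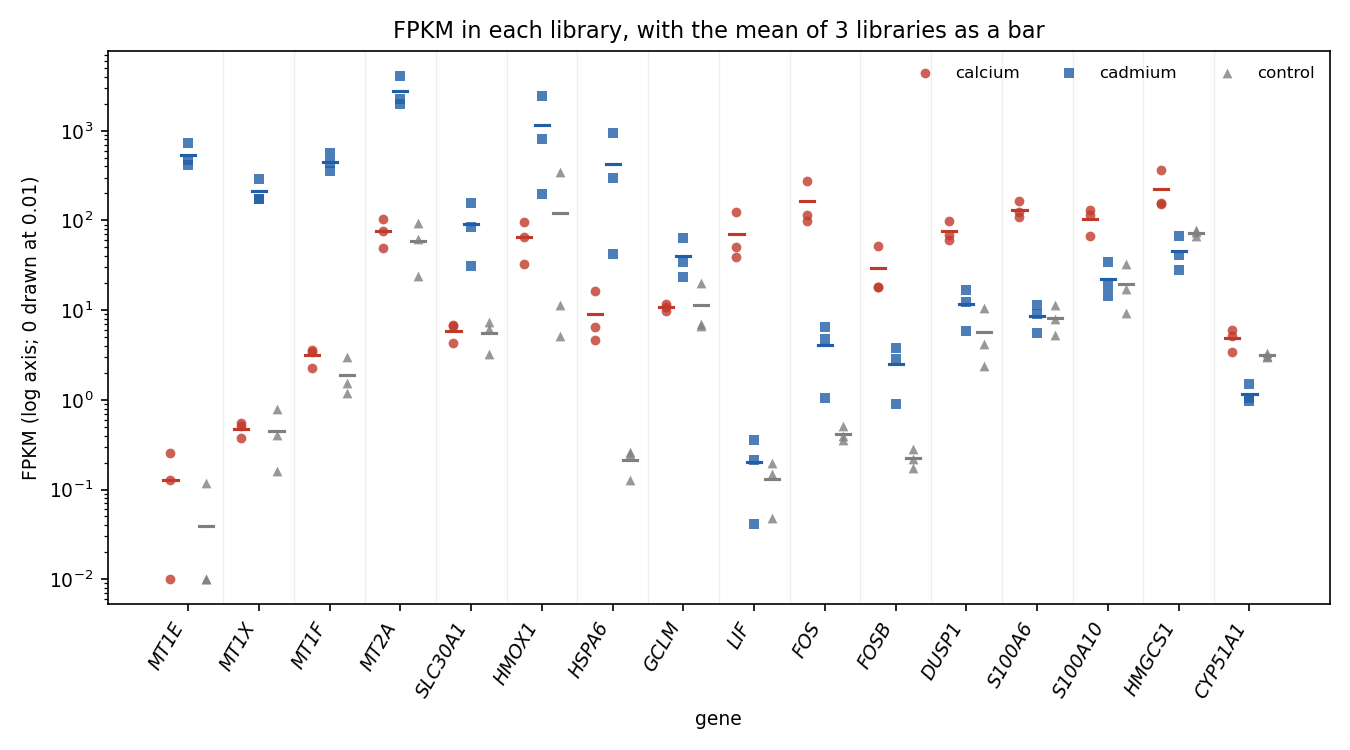
FPKM of 16 genes in each of the 3 calcium (red circles), 3 cadmium (blue squares) and 3 untreated (grey triangles) libraries on a log axis, with the mean of each group as a bar and values of 0 drawn at 0.01. The metallothioneins and SLC30A1 are high in the cadmium libraries alone, and HMOX1 and HSPA6 spread widely among the cadmium libraries. LIF, FOS, FOSB, DUSP1, S100A6 and S100A10 are highest in the calcium libraries, and FOS is above the untreated level in the cadmium libraries too.

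None of the 32 heat shock chaperone genes tested was called, although 29 had a log2 difference below 0 and the median was −0.92. HSPA6, an inducible member of the HSP70 family, read 6.56, 16.2 and 4.60 FPKM with calcium and 42.3, 300.3 and 947 FPKM with cadmium. In untreated cells it read 0.128 to 0.260 FPKM, so the calcium libraries were also above the untreated ones. The calcium and cadmium groups did not overlap, but the cadmium libraries spread over a wide range. The log2 difference of −4.84 ± 1.04 missed the threshold (adjusted p = 0.0533). HSPA1A, the main stress-induced HSP70, read 100.2, 241 and 105 FPKM with calcium and 111, 559 and 2130 FPKM with cadmium, so the groups overlapped (log2 difference −1.90, adjusted p = 0.285). DNAJB1, an HSP40 partner of HSP70, also overlapped, at 57.4 to 94.4 FPKM with calcium and 62.4, 191 and 762 FPKM with cadmium (adjusted p = 0.278). The summed level of the list was 2181 to 3368 FPKM with calcium and 1845, 3538 and 12164 FPKM with cadmium. In untreated cells it was 1756 to 2022 FPKM. Cadmium replicate 1 lay below the calcium range, replicate 2 just above it and replicate 3 far above it. Without that library the median of the list was −0.27, and without cadmium replicate 1 it was −1.25 with 2 genes called, both higher with cadmium. Members of the HSPA1 group are near-identical and their fragments may be split.

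Of the 28 NRF2 targets tested, 1 was called, against 3.33% of all genes in either direction. GCLM, the modifier subunit of the enzyme that starts glutathione synthesis, read 10.9, 9.70 and 11.7 FPKM with calcium and 23.4, 34.3 and 63.8 FPKM with cadmium (log2 difference −1.78 ± 0.35, adjusted p = 0.0423). HMOX1, the inducible heme oxygenase, read 95.5, 65.5 and 32.9 FPKM with calcium and 196, 816 and 2453 FPKM with cadmium, and missed the threshold (log2 difference −3.63 ± 0.85, adjusted p = 0.0631). Untreated replicate 3 read 349 FPKM of HMOX1 while the other untreated libraries read 11.6 and 5.20 FPKM. FTL, the ferritin light chain, read 338 to 412 FPKM with calcium and 645 to 782 FPKM with cadmium (log2 difference −0.94 ± 0.20, adjusted p = 0.0522). NQO1, another common NRF2 target, had a log2 difference of −0.23 (adjusted p = 0.628). The median log2 difference of the list was −0.36, with 20 of the 28 members below 0, and it was −0.17 without calcium replicate 3 and −0.19 without cadmium replicate 3. The summed level was 3657 to 6093 FPKM with calcium and 4807, 5582 and 11453 FPKM with cadmium, so only cadmium replicate 3 lay outside the calcium range.

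GADD45G, a stress-induced growth arrest gene, read 4.57, 2.21 and 3.85 FPKM with calcium and 13, 44.7 and 119 FPKM with cadmium (log2 difference −3.56 ± 0.73, adjusted p = 0.0466). It was the only one of 16 genes for CDK inhibitors and GADD45 proteins to be called, against 3.33% of all genes. CDKN1A, which encodes the CDK inhibitor p21, had the opposite direction in value, at 57.9, 129 and 108 FPKM with calcium and 5.07, 25.3 and 25.4 FPKM with cadmium (log2 difference 2.64 ± 0.63, adjusted p = 0.0671). PIP, a secreted protein of apocrine cells that responds to androgen, read 145, 71.1 and 104 FPKM with calcium and 598, 319 and 515 FPKM with cadmium (log2 difference −2.17 ± 0.34, adjusted p = 0.0284), against 39.1 to 129.5 FPKM in untreated cells. It was the only one of 10 androgen response genes tested to be called, against 3.33% of all genes. IGHE, the constant region of the immunoglobulin epsilon chain, read 1.22, 3.52 and 37.6 FPKM with cadmium and at most 0.0276 FPKM with calcium, with most of it in cadmium replicate 3. The small RNA gene MIR7158, which lies within LINC01105, was among the 10 genes with the lowest log2 differences (−5.02), and its fragments cannot be told apart from those of the longer gene.

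Of 28 immediate early genes tested, 9 were called higher with calcium, against 2.09% of all genes, and none with cadmium. A log2 difference above 0 was shown by 24, and the median was 1.76. FOS (chr14:75278774-75282230) read 97.9, 277 and 116 FPKM with calcium, 1.04, 4.72 and 6.48 FPKM with cadmium and 0.355 to 0.512 FPKM in untreated cells (log2 difference 5.47 ± 0.68, adjusted p = 0.0195). The cadmium libraries were thus also above the untreated ones for FOS, and far below the calcium ones. FOSB, a partner of JUN proteins like FOS, read 17.9, 51.6 and 18.1 FPKM with calcium and 0.901, 3.78 and 2.82 FPKM with cadmium (log2 difference 3.52 ± 0.59, adjusted p = 0.0302). The nuclear receptors NR4A1 and NR4A2 had log2 differences of 3.42 ± 0.71 and 3.97 ± 0.60 (adjusted p = 0.0478 and 0.0276). NR4A1 read 35.3, 87.7 and 47.3 FPKM with calcium and 1.62, 13.4 and 5.09 FPKM with cadmium. In FOS, FOSB, NR4A1 and NR4A2 alike, calcium replicate 2 was the highest of the calcium libraries.

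CYR61, a matricellular protein, read 108, 237 and 186 FPKM with calcium and 8.56, 29.3 and 13.8 FPKM with cadmium (log2 difference 3.47 ± 0.47, adjusted p = 0.0244). The other called members were ZFP36, which destabilizes cytokine messages (log2 difference 2.16), and the transcription factors KLF6 (2.46), JUNB (1.56) and IER2 (1.18). EGR1, a zinc finger factor induced by growth signals, had a log2 difference of 1.86 and was not called (adjusted p = 0.187), nor was ATF3, which answers stress (2.64, adjusted p = 0.178). EGR4 had the lowest value of the list, at −1.68 (adjusted p = 0.170). KLF4, a pluripotency factor and qPCR target, read 22.1, 43.5 and 30.2 FPKM with calcium, 6.79, 13 and 14.9 FPKM with cadmium and 3.95 to 7.53 FPKM in untreated cells, with a log2 difference of 1.48 ± 0.36 (adjusted p = 0.0693). No member was called when any of the 3 calcium libraries was left out, and 4, 1 and 4 were called without cadmium replicate 1, 2 or 3, of which 1 (without replicate 1) was higher with cadmium.

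Of the 22 genes that feed back on MAP kinases, 5 were called, all higher with calcium, against 2.09% of all genes. The median log2 difference was 0.60. DUSP1, a phosphatase of the MAP kinases, read 68.5, 99.1 and 61.0 FPKM with calcium and 5.83, 16.9 and 12.2 FPKM with cadmium (log2 difference 2.80 ± 0.39, adjusted p = 0.0257). DUSP4, a phosphatase of ERK, read 36.6 to 47.8 FPKM with calcium and 9.96 to 18.2 FPKM with cadmium (log2 difference 1.62 ± 0.25, adjusted p = 0.0284). In untreated cells DUSP4 read 11.6 to 19.4 FPKM, which overlapped the cadmium libraries. ETV4, an ETS factor downstream of ERK, read 1.71 to 2.92 FPKM with calcium, 0.422 to 0.450 FPKM with cadmium and 1.17 to 1.69 FPKM untreated, so its cadmium libraries lay below the untreated ones without overlap. RASD1, a small GTPase, read 54.2, 179 and 41.0 FPKM with calcium and 0.723, 10.8 and 2.54 FPKM with cadmium (log2 difference 4.68 ± 0.93, adjusted p = 0.0449). PHLDA1 was the fifth (log2 difference 2.37, adjusted p = 0.0465). None of the list was called when any of the 3 calcium libraries was left out, and 1, 1 and 3 were called without cadmium replicate 1, 2 or 3.

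LIF (chr22:30240447-30246851, ENSG00000128342) had the largest log2 difference of the genes higher with calcium. It read 50.4, 123 and 39.2 FPKM with calcium, 0.0416, 0.359 and 0.215 FPKM with cadmium and 0.0477 to 0.198 FPKM in untreated cells. The log2 difference was 7.84 ± 0.55 (adjusted p = 0.0029), and the cadmium libraries lay within or close to the untreated range. AC004264.1, a transcript on the opposite strand that overlaps LIF, read 10.2, 25.9 and 6.13 FPKM with calcium and 0 to 0.186 FPKM with cadmium, and fragments of the overlap cannot be assigned while the strand setting is uncertain. The same holds for AC025259.3, which overlaps NR4A1. CLCF1, another cytokine of the family, read 7.69, 15.7 and 10.8 FPKM with calcium and 2.17, 4.88 and 2.53 FPKM with cadmium (log2 difference 1.83 ± 0.38, adjusted p = 0.0470). The receptor subunit genes OSMR and IL6R had log2 differences of 1.95 and 1.03 and were not called (adjusted p = 0.0993 and 0.104). Of the 15 genes of the family tested, LIF and CLCF1 were the 2 called, where 2.09% of all genes were called higher with calcium.

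KRT81 was, after LIF, the gene with the largest difference among those higher with calcium. It read 11.4, 104 and 59.7 FPKM with calcium and 0.0855, 0.561 and 0.252 FPKM with cadmium (log2 difference 6.89 ± 0.82, adjusted p = 0.0173), and it overlaps KRT86 on the opposite strand (mean 2.26 and 0.255 FPKM). F2RL1, a receptor activated by proteases (PAR2), was evenly high with calcium at 25.1, 27.6 and 36.0 FPKM and read 0.242, 1.31 and 0.638 FPKM with cadmium (log2 difference 5.37 ± 0.48, adjusted p = 0.0072). TNFRSF18, the receptor GITR, read 4.94, 11.7 and 3.42 FPKM with calcium and 0.0718 to 0.178 FPKM with cadmium. RAB7B, a GTPase of late endosomes, read 5.92, 4.90 and 3.21 FPKM with calcium and 0.0149 to 0.182 FPKM with cadmium. In untreated cells these 4 genes read at most 0.336 FPKM. RF00019, a small RNA gene of 112 bases inside DCP1A, read 1.20 to 4.09 FPKM with calcium, from 3 to 8 fragments, and had no fragment with cadmium. This is at least 1.92-fold higher than the limit that 3 fragments per library would set, and its place among the 10 genes with the largest fitted differences (log2 difference 4.71) depends on the pseudocount. The mean with cadmium was below 0.5 FPKM for RF00019, LIF, KRT81, TNFRSF18 and RAB7B. These genes passed the filter only through the calcium libraries, and the size of their fitted differences depends on the pseudocount.

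S100 genes, whose proteins bind calcium through EF hands, gave 5 calls among the 10 tested, all higher with calcium, against 2.09% of all genes. The median log2 difference was 1.38. S100A6 (chr1:153534599-153536244) read 109, 123 and 165 FPKM with calcium, 9.06, 11.4 and 5.58 FPKM with cadmium and 5.29 to 11.3 FPKM in untreated cells (log2 difference 3.95 ± 0.30, adjusted p = 0.00363). S100A10, the partner of annexin A2, read 67.9, 115 and 130 FPKM with calcium and 18.4, 34.8 and 14.3 FPKM with cadmium (log2 difference 2.26 ± 0.38, adjusted p = 0.0302). S100A13 (log2 difference 1.97), S100A16 (1.49) and S100A11 (1.28) were also called. S100A16 was the most abundant at 1251 to 1894 FPKM with calcium and 551 to 584 FPKM with cadmium. All 5 lie on chromosome 1 between 151982915 and 153631360. S100P had the only value below 0 (−0.90, adjusted p = 0.586). Leaving out a library kept 0 to 2 of these calls, with 0 without calcium replicate 2.

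Of 29 tested genes that move or read calcium inside the cell, CALM2 alone was called, against 3.33% of all genes in either direction. The median log2 difference was 0.05. CALM2, a calmodulin gene, read 113, 143 and 157 FPKM with calcium and 53.2, 56.8 and 56.7 FPKM with cadmium, with the untreated cells at 69.8 to 88.6 FPKM between them (log2 difference 1.30 ± 0.19, adjusted p = 0.0264). The store-operated channel gene ORAI3 had a log2 difference of 1.02 (adjusted p = 0.0590), and the inositol trisphosphate receptor gene ITPR1 a value of −1.42 (adjusted p = 0.0863). The pump ATP2A2 and the calcium sensor STIM1 had log2 differences of 0.01 and −0.02. Of 14 adhesion genes with calcium-dependent junctions, 13 had values above 0 and 2 were called, both higher with calcium, against 2.09% of all genes. PKP3, a plakophilin of desmosomes, read 113 to 151 FPKM with calcium and 65.3 to 70.6 FPKM with cadmium (log2 difference 0.98 ± 0.19, adjusted p = 0.0383). PPL, or periplakin, read 7.60 to 8.79 FPKM with calcium and 3.71 to 4.69 FPKM with cadmium (log2 difference 0.95 ± 0.19, adjusted p = 0.0465).

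**Figure D3:**
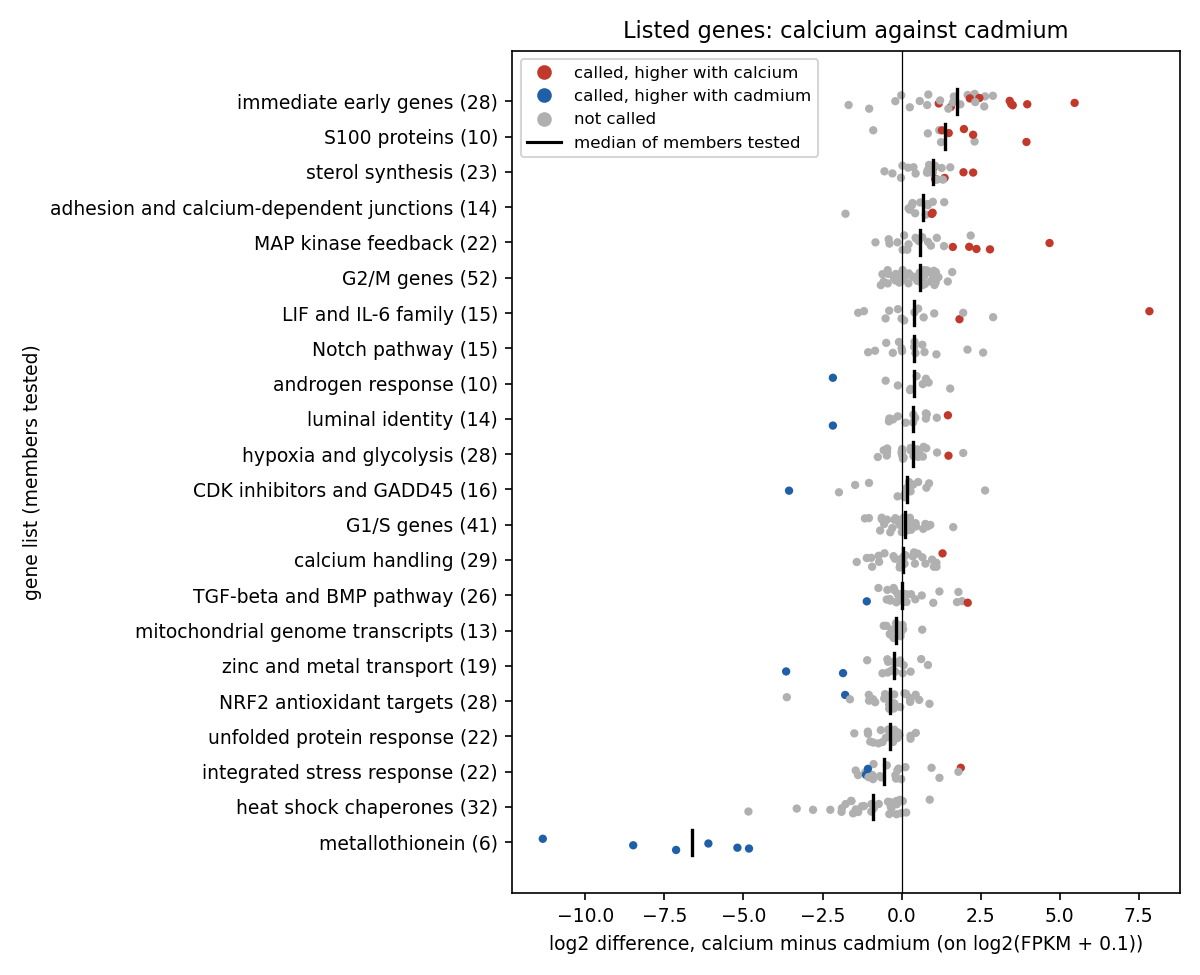
Each point is a tested gene of the list named at the left, placed by its log2 difference, calcium minus cadmium, with the number of tested members in brackets and the median as a black bar. Red and blue points were called higher with calcium and with cadmium. The metallothioneins stand far to the left with a median of −6.62, and the immediate early genes have the highest median of the lists drawn, at 1.76.

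Of 23 sterol synthesis genes tested, 5 were called, all higher with calcium, against 2.09% of all genes. Values above 0 were shown by 20, and the median log2 difference was 0.99. HMGCS1, the enzyme that makes HMG-CoA, read 156, 154 and 362 FPKM with calcium, 28.0, 41.5 and 67.1 FPKM with cadmium and 67.9 to 77.7 FPKM in untreated cells (log2 difference 2.26 ± 0.43, adjusted p = 0.0384). CYP51A1, which demethylates lanosterol, read 5.21, 3.42 and 6.07 FPKM with calcium and 0.967, 1.06 and 1.49 FPKM with cadmium (log2 difference 1.96 ± 0.30, adjusted p = 0.0284). For both genes the untreated cells lay between the calcium and the cadmium libraries. NSDHL and FDPS, further enzymes of the pathway, had log2 differences of 1.06 and 1.00. The serum in the medium, which carries sterols, also differed between the groups, and its part was not tested. Without cadmium replicate 3, 4 members were called, and none in the 5 fits that left out another library.

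The integrated stress response list gave calls in both directions. ATF5, a transcription factor of the ATF4 family, read 17.3, 16.9 and 17.5 FPKM with calcium, 5.40, 5.31 and 3.46 FPKM with cadmium and 17.8 to 18.5 FPKM in untreated cells (log2 difference 1.87 ± 0.22, adjusted p = 0.0173), so here the cadmium libraries were the ones away from the untreated level. MTHFD2, a mitochondrial folate enzyme, and PHGDH, which starts serine synthesis, were lower with calcium. MTHFD2 read 17.4 to 21.0 FPKM with calcium, 39.7 to 41.8 FPKM with cadmium and 34.6 to 47.2 FPKM in untreated cells (log2 difference −1.06 ± 0.17, adjusted p = 0.0287). PHGDH read 5.59 to 9.24 FPKM with calcium, 15.4 to 17.8 FPKM with cadmium and 23.8 to 29.3 FPKM in untreated cells (log2 difference −1.12 ± 0.23, adjusted p = 0.0470). Of the 22 genes tested, ATF4 itself had a log2 difference of −0.01 and DDIT3 a value of −0.89 (adjusted p = 0.511). None of 22 unfolded protein response genes was called (median −0.38). At an unadjusted p below 0.05 there were 6 of the 22, all higher with cadmium, against 1607 of all 14976 genes in that direction.

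No cell cycle gene was called among 41 G1/S and 52 G2/M genes, with median log2 differences of 0.10 and 0.58. At an unadjusted p below 0.05 there were 2 and 3 genes, against 23.2% of all genes. The signs of both medians turned without cadmium replicate 3, whose summed G2/M level was 308 FPKM against 1005 and 1030 FPKM in the other cadmium libraries and 816 to 995 FPKM with calcium. The summed G1/S level was 533, 256 and 161 FPKM with cadmium and 244 to 288 FPKM with calcium. Without cadmium replicate 3 the medians were −0.42 and −0.75 and 1 gene of each list was called higher with cadmium. Without each of the other libraries they were 0.01 to 0.64, with the highest G1/S value without cadmium replicate 1, and 0.20 to 1.22. Of 26 TGF-beta and BMP genes tested, 13 had values above 0 and 13 below, and the median was 0.01. There were 2 calls, against 3.33% of all genes. ID3, an inhibitor of helix-loop-helix factors, was higher with calcium (12.9 to 36.2 against 4.53 to 5.06 FPKM). INHBB, an inhibin subunit, was higher with cadmium (59.6 to 64.5 against 112 to 159 FPKM). PFKP, the platelet form of phosphofructokinase, was the only one of 28 hypoxia and glycolysis genes called, against 3.33% of all genes. It read 85.5 to 92.4 FPKM with calcium and 26.4 to 35.7 FPKM with cadmium (log2 difference 1.48 ± 0.19, adjusted p = 0.0195). None of 15 Notch genes was called, and the ligand gene DLL4 came nearest with 5.95, 13.7 and 9.08 FPKM with calcium and 0.508, 2.30 and 2.35 FPKM with cadmium (adjusted p = 0.0572).

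Of a list of 12 qPCR targets and ESRR genes, 10 were below the filter and KLF4 and ESRRA were tested. ESRRA, an ESRRB relative, read 22.3 to 23.1 FPKM with calcium and 23.1 to 33.6 FPKM with cadmium (log2 difference −0.34 ± 0.20, adjusted p = 0.337). ESRRB had 0, 12 and 0 fragments with calcium and 6, 31 and 12 with cadmium, which is too few for the filter. SOX2, NANOG, IGF1, DPT, SFRP2 and PRL had at most 5 fragments in any of the 6 libraries, so a difference was not detectable at this depth. All 14 luminal identity genes were detected in every library, with a summed level of 3480 to 4904 FPKM with calcium and 3167 to 3982 FPKM with cadmium. Of the 14, 9 had a log2 difference above 0 and 5 below, and 1 was called in each direction. PIP, given above, was called higher with cadmium, and neither call was kept when any 1 library was left out. KRT18, a keratin of luminal epithelium, was called higher with calcium (393 to 656 against 184 to 204 FPKM), and its gene overlaps that of its partner KRT8, which lies on the opposite strand and missed the threshold (log2 difference 1.11, adjusted p = 0.0590). Of 15 basal, stromal, immune and endothelial markers, 2 were tested and none called, and their summed level was 14.6 to 17.8 FPKM with calcium and 11.1 to 16.7 FPKM with cadmium. The 13 mitochondrial genome transcripts had a median log2 difference of −0.18 with none called. The median was 0.06 without calcium replicate 2 and −0.39 without calcium replicate 3. These transcripts took 4.88% to 7.55% of the fragments with calcium and 7.36% to 9.75% with cadmium. In bulk samples, fewer cells of a type and less RNA per cell cannot be told apart.

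The untreated cells, which took no part in the test, were set beside the called genes to describe their levels. For 189 of the 313 genes higher with calcium, the mean log2 level of the untreated libraries lay between those of calcium and cadmium, for 108 it lay below both and for 16 above both. It was nearer to cadmium for 206 and nearer to calcium for 107. For the 186 genes higher with cadmium, the untreated level lay between for 147, below both for 37 and above both for 2, and it was nearer to calcium for 143 and nearer to cadmium for 43. The medium of the untreated cells is not given in the labels, and these placements carry no test.

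The same contrast was made in cells given DES before the metal, in 6 other libraries. Here 1 gene was called (0.00668%), the microRNA gene MIR4442, which had no fragment with DES and calcium and 3.23 to 4.93 FPKM with DES and cadmium. At an unadjusted p below 0.05 there were 1698 genes. The count was 0, 0 and 1 without each library of DES with calcium and 23, 10 and 0 without each library of DES with cadmium. Of the 499 genes called without DES, 296 (59.3%) had the same sign with DES, against 49.5% of all genes tested. Their median log2 difference with DES was 0.14 for the genes higher with calcium and −0.16 for those higher with cadmium. The difference between both contrasts was tested as an interaction, which was called in 81 genes (0.541%), 51 above and 30 below 0, and 61 of them were among the 499. The interaction holds the calcium and cadmium libraries that gave the 499, so this overlap is partly fixed by construction.

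LIF had the lowest interaction p-value of all genes. With DES it read 1.24, 0.734 and 0.998 FPKM with calcium and 1.02, 0.472 and 2.08 FPKM with cadmium, so the groups overlapped, and the contrast without DES exceeded that with DES by 7.90 ± 0.82 on the log2 scale (adjusted p = 0.0112). PFKP, PKP3 and ATF5 were also higher with calcium without DES and had log2 differences of −0.54, −0.75 and −0.26 with DES, with adjusted interaction p-values of 0.0368, 0.0368 and 0.0453. SLC39A8, higher with cadmium without DES, read 4.34 to 7.46 FPKM with DES and calcium and 3.44 to 6.0 FPKM with DES and cadmium (interaction −2.16 ± 0.41, adjusted p = 0.0457). F2RL1 and S100A6 missed the threshold of this test (adjusted p = 0.0598 for each). The 81 became 0, 0 and 49 without calcium replicate 1, 2 or 3, and 15, 1 and 7 without the respective cadmium replicate. They became 1, 0 and 17 without each library of DES with calcium, and 122, 95 and 15 without each library of DES with cadmium.

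The metallothioneins were higher with cadmium in value with DES as well, but the libraries spread widely. MT1E read 2.69, 23.9 and 39.6 FPKM with DES and calcium and 1433, 97.2 and 444 FPKM with DES and cadmium, a log2 difference of −4.84 ± 1.39 that was not called (adjusted p = 0.373). MT2A read 342, 610.3 and 1117 FPKM with DES and calcium and 10176, 1840 and 5493 FPKM with DES and cadmium (log2 difference −2.93 ± 0.84, adjusted p = 0.373). The groups did not overlap for either gene, and all calcium values with DES were above all calcium values without it. Cells given DES alone were also high, at 14.3 ± 7.53 FPKM of MT1E and 475 ± 275 FPKM of MT2A (SD, n = 3). The sum of the 13 metallothioneins was 325, 363 and 866 FPKM with DES alone and 359, 667 and 1236 FPKM with DES and calcium, so these groups overlapped. SLC30A1 read 16.9, 17.9 and 26.0 FPKM with DES and calcium and 235, 123 and 373 FPKM with DES and cadmium, with a log2 difference of −3.47 close to the −3.65 without DES. No metallothionein was called in the interaction. Among genes higher with calcium, FOS had a log2 difference of 2.37 with DES against 5.47 without (88.4 to 173 against 9.42 to 65.6 FPKM with DES), JUNB 1.57 and FOSB 2.88, none of which was called (adjusted p = 0.385, 0.308 and 0.318).

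**Figure D4:**
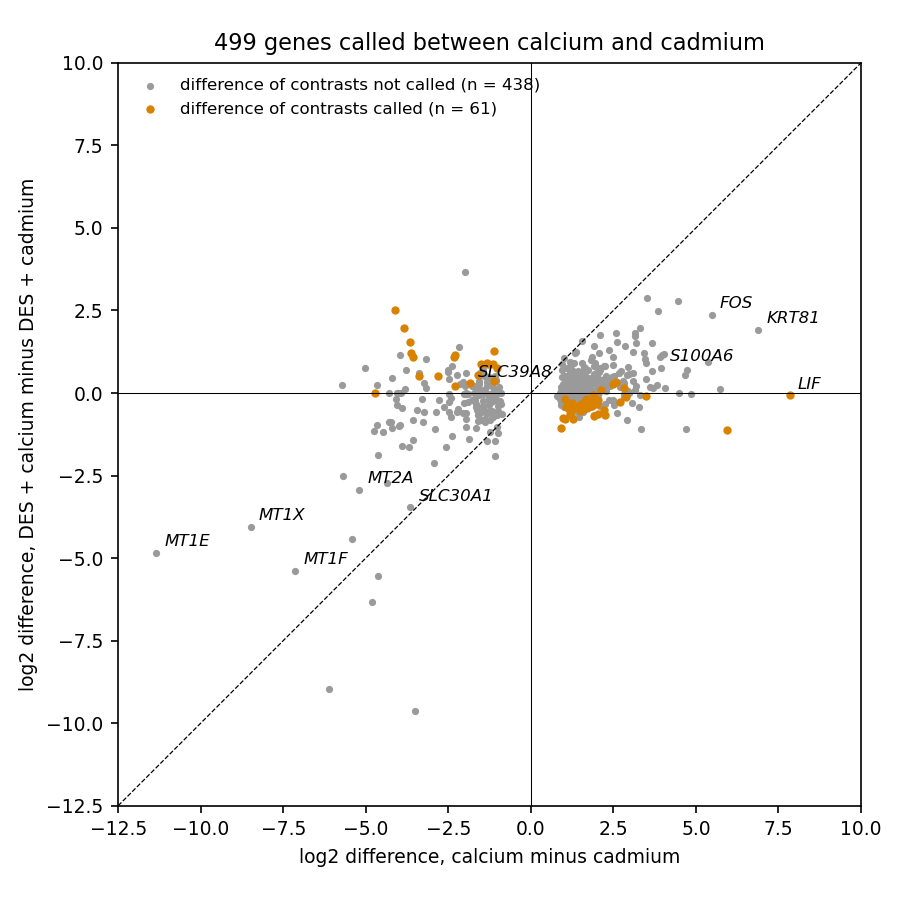
Each point is a gene called between calcium and cadmium (499 genes), with the log2 difference without DES on the horizontal axis and with DES on the vertical axis, and the dashed line marks equal values. Orange points are the 61 genes in which the difference of both contrasts was called. Most genes lie near 0 on the vertical axis, LIF among them, while SLC30A1 lies near the dashed line and MT1E, MT1X, MT1F and MT2A lie between.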

How the data were processed

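The authors deposited FPKM values per gene for 21 libraries of MDA-MB-453 cells, with gene length and annotation (GRCh38.p14). Per the labels, poly-A RNA was sequenced, and the submitters' processing notes name HISAT2 2.0.5 and featureCounts 1.5.0-p3. The study's methods name DESeq2 and edgeR, which were not run here. Both a strand-keeping and a non-directional second strand are described, so overlapping genes are uncertain. In each library, FPKM times gene length came in even steps, and dividing by the step gave whole fragments for 100% of the values above 0 (within 0.05). No pair of the 6 libraries shared fragment counts in more than 2.34% of genes.

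Groups followed the sample titles. Genes averaging 0.5 FPKM or more in the 6 libraries were tested on log2(FPKM + 0.1) with limma 3.58.1 in R 4.3.3 (lmFit, eBayes with a trend, two-sided), with only the compared groups in the fit, and adjusted by Benjamini-Hochberg over all 14976 genes at 0.05. These differences understate changes of low genes. The same test was made with DES, and an interaction compared both contrasts. The script was tested on simulated data. A group without fragments was set to 3 fragments per library, which covers counting error only. Promoters were read from a RefSeq table (37 of 58 named called genes matched). Alternatives were other pseudocounts, filters, scalings, limma-voom, a fit of all 7 groups, array weights, a replicate block and leaving out each library.

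Genes named are the 10 largest called differences per direction (mean FPKM of at least 1, no overlap), all metallothioneins, the genes measured by qPCR, and for each list the called members and the 4 with the lowest p. Other members given for contrast (HSPA1A, DNAJB1, NQO1, EGR1, EGR4, ATF3, ATP2A2, STIM1, S100P, ATF4, DDIT3 and MIR4442) were chosen after their values were seen. Members and lists were chosen with earlier results of these data known. Results for a few of the genes that the rule names are not reported here.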

Additional observations from a re-analysis of the deposited data

Results flagged for a closer look

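For 7 named genes the contrast of calcium against cadmium differed between cells without and with DES by the test of the difference itself (limma, interaction term, 3 libraries in each of 4 groups). LIF had a difference of 7.90 ± 0.82 (SE, log2 scale, adjusted p = 0.0112), and the overlapping antisense transcript AC004264.1 a value of 7.05 ± 1.09 (adjusted p = 0.0360). LFNG, a glycosyltransferase that modifies Notch, had a value of 2.73 ± 0.40 (adjusted p = 0.0355). It read 17.6, 13 and 14.2 FPKM with calcium and 8.69, 7.25 and 5.09 FPKM with cadmium, and with DES 1.19, 1.80 and 1.61 FPKM with calcium and 6.82, 4.58 and 3.72 FPKM with cadmium, so the order of the groups turned. ATF5 had a value of 2.13 ± 0.41, PFKP of 2.02 ± 0.32, PKP3 of 1.73 ± 0.28 and SLC39A8 of −2.16 ± 0.41 (adjusted p = 0.0453, 0.0368, 0.0368 and 0.0457). The number of genes called in this test fell to 0 without calcium replicate 1 or calcium replicate 2.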

How the results depend on the processing

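The 499 calls between calcium and cadmium became 40 with no filter on low values, 1726 with all 7 groups in the fit, and 3668 with array weights, which did not converge and put a weight of 7.35 on cadmium replicate 2 (0.374 to 1.06 on the others). With the alternatives chosen after seeing the data, they became 768 among protein-coding genes of at least 200 bases and 3 without both calcium replicate 2 and cadmium replicate 3. Leaving out each library gave 5 to 298. The other alternatives gave 458 to 654, apart from the replicate block, which is given below. MT1E, MT1X and MT1F were called in all 18 alternatives, and LIF in 17. The single call with DES became 0 with a pseudocount of 1, with no filter, with limma-voom and with the replicate block, and 0 to 23 when a library was left out. The 81 interaction calls became 141 with a pseudocount of 1, 1 with no filter, 46 with limma-voom, and 0 to 122 when a library was left out. The causes of these changes were not tested.

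Replicate numbers are shared between the groups, but deviations of same-numbered calcium and cadmium libraries correlated at 0.156, 0.0166 and 0.0772, so the numbers were not taken to pair the samples. With the replicate block, 319 genes were called, 263 of them among the 499, and 109 in the interaction. Genes with few fragments limit what the depth can show, as for ESRRB and SOX2.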

Other observations

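Interferon-stimulated genes, a list drawn up after the values were seen, gave 20 calls among the 43 tested, all higher with calcium, where 2.09% of all genes were called in that direction. All 43 had a log2 difference above 0 and the median was 2.11, against −0.02 over all genes. As the members were chosen with these values known, the count and median describe them and are not a test. ISG15, a ubiquitin-like modifier, read 1861, 1637 and 791 FPKM with calcium and 257, 263 and 55.5 FPKM with cadmium (log2 difference 3.11 ± 0.64, limma, adjusted p = 0.0470). IFI27 read 16.7 to 20.4 FPKM with calcium and 0.851 to 2.35 FPKM with cadmium (3.48 ± 0.36, adjusted p = 0.0131), and the interferon lambda gene IFNL2 read 1.94 to 2.64 and 0.0826 to 0.200 FPKM. IFNL2 was below 0.5 FPKM in every cadmium library, so it passed the filter only through the calcium libraries. The summed level of the list was 3174 to 5227 FPKM with calcium, 537 to 1305 FPKM with cadmium and 489 to 1704 FPKM in untreated cells. It was 1515 to 2355 FPKM with DES and calcium and 1105 to 2664 FPKM with DES and cadmium, where the groups overlapped. None of the list was called without calcium replicate 1 or calcium replicate 2, 1 without calcium replicate 3, and 6, 2 and 14 without cadmium replicate 1, 2 or 3.

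Of other lists drawn up after the values were seen, actin and myosin genes gave 10 of 26 called, all higher with calcium (median 0.95), with FLNA, the crosslinker filamin A, at 779 to 1077 against 283 to 381 FPKM. Integrins gave 5 of 9 (median 1.05), with ITGB5 at 21.7 to 24.5 against 6.89 to 9.12 FPKM. Annexins, which bind membranes with calcium, gave 2 of 8 (median 1.02), with ANXA2 at 329.5 to 339.5 against 99.8 to 155 FPKM. Aldehyde dehydrogenases gave 2 of 12, both higher with cadmium, with ALDH3A1 at 0.0876 to 0.469 against 1.75 to 4.65 FPKM. Over all genes, 2.09% were called higher with calcium and 1.24% higher with cadmium. As these lists were also chosen with the values known, their counts are not a test. When a library was left out, the calls were 0 to 4 for the actin and myosin genes, 0 to 3 for the integrins, 0 or 1 for the annexins and 0 or 2 for the aldehyde dehydrogenases, and they were 0 for all 4 lists without calcium replicate 1 or calcium replicate 2 and 4, 3, 1 and 2 without cadmium replicate 3.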
